A study of Mus musculus with 4 samples.

Results

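The genes described here form the structural outfit of an epithelial cell: the claudins and other proteins of the tight junction, the keratins, the proteins of the desmosome, and a small set of surface, splicing, protease and trafficking genes that epithelia share. The 42 genes were named as a functional set, with earlier results of these data known, and a probe belonged to a gene when its RefSeq accession carried that symbol. All 42 had a probe on the array (55 probes), out of 22911 genes with a named probe, and 23 of them had a probe bright enough to be tested, out of 13215 tested genes. RNA was compared between ID8G cells and GO2 cells on 4 one-color Agilent mouse arrays with Cy3-labeled cRNA, 2 arrays per cell line and all on 1 slide. ID8 is a mouse ovarian cancer cell line that arose from ovarian surface epithelial cells by spontaneous transformation. ID8G cells are ID8 cells that were transduced with a retrovirus for GFP and sorted for it. GO2 cells are descendants of ID8G cells that passed through 2 rounds of intraperitoneal growth in immunocompetent female C57BL/6J mice. Each time, CD45-GFP+ cells were sorted out of the digested omental tumors, so GO2 is the product of 1 selection, carries the same GFP as its parent, and is not a set of independent lines. Both lines were kept in DMEM with FBS, insulin, transferrin and sodium selenite. The labels do not say whether the arrays of a line came from separate cultures, so the p-values measure the spread between these arrays, which may be technical.

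Epithelial cells are held together by a series of junctions. Claudins are membrane proteins whose extracellular loops meet between neighboring cells and form the tight junction, where some members seal the gap and others make pores for ions and water. Occludin and F11r (JAM-A) lie in the same strands, and the scaffolds Tjp1 (ZO-1), Tjp3 and cingulin tie them to actin. Desmosomes use the cadherins desmoglein and desmocollin, which plakoglobin, plakophilins and desmoplakin anchor to keratin filaments, and keratins assemble as pairs of a type I and a type II chain, such as Krt18 with Krt8 in simple epithelia and Krt14 with Krt5 in basal cells of stratified epithelia. The ovarian surface epithelium is a modified mesothelium that holds simple keratins together with mesenchymal features, and claudins and Epcam are known as genes that epithelial ovarian carcinomas often express.

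Between ID8G and GO2 cells, claudins accounted for 4 of the 6 called genes and for 8 of the 23 tested. Cldn2, Cldn3, Cldn10 and Krt19 were called lower in GO2 cells, and Krt14 and Cldn1 higher. Cldn1 was below background in ID8G cells and tested only through GO2 cells, where it was at least 1.46-fold higher. Krt14 too was tested only through GO2 cells, with 1 ID8G array well above background, and Cldn2 only through ID8G cells. The remaining 17 tested genes stayed below the limit used here for a call. That limit was a Benjamini-Hochberg adjusted p below 0.05 over all 28368 tested probes (limma) and a log2 difference of at least 1. Another 19 genes, with Cldn4, Epcam, Ocln, Krt7 and Muc1 among them, had no probe well above background on both arrays of either line.

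The promoters of 7 of these genes are shown. Cldn1 and Krt14 were called higher and Cldn2 and Cldn3 lower, and each has a single RefSeq window. The other called genes are left out, since Cldn10 has several windows and Krt19 has none. Cldn4, Epcam and Muc1, classical markers of epithelial carcinomas, were added and were not tested. Each promoter is the window on GRCm38.p6 from 250 bases before to 50 bases after the transcription start site. It is written 5′ to 3′ on the strand of the gene. Capitals mark every match, on either strand, to 6 short motifs: the E-box CAGGTG that Snail and Zeb repressors bind, AACNGGTT of grainyhead-like factors, TGTTTAC of forkhead factors, TGANTCA of AP-1, the GC box GGGCGG and the TATA box TATAAA.
Cldn1 (chr16:26371790-26372089, minus strand): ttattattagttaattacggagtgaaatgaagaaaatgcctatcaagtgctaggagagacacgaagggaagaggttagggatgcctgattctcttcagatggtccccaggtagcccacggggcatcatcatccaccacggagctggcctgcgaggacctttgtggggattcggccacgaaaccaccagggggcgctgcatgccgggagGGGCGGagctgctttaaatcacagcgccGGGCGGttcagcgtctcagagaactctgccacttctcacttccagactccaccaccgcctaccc
Cldn2 (chrX:139800558-139800857, plus strand): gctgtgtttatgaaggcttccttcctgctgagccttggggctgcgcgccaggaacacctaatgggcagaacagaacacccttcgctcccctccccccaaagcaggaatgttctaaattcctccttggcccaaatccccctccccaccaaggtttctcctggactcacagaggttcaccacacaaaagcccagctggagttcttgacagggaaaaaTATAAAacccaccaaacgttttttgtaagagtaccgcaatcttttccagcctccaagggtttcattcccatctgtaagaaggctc
Cldn3 (chr5:134985964-134986263, plus strand): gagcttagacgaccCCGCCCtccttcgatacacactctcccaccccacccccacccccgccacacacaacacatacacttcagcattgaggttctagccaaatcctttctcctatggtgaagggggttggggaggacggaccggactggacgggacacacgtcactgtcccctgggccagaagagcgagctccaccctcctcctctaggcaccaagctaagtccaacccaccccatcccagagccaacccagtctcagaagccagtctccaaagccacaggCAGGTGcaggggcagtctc
Cldn4 (chr5:134946885-134947184, minus strand): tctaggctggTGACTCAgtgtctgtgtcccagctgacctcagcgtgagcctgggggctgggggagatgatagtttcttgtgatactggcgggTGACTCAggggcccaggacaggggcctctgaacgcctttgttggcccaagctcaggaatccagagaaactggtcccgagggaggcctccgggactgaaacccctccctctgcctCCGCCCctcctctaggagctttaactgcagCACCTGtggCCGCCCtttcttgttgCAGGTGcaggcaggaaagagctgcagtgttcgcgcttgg
Epcam (chr17:87635729-87636028, plus strand): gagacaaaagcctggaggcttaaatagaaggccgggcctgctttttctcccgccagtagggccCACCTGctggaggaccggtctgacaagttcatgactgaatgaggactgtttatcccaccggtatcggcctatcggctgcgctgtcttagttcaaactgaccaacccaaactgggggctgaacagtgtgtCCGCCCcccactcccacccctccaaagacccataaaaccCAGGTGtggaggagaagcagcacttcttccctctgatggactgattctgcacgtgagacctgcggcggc
Krt14 (chr11:100205981-100206280, minus strand): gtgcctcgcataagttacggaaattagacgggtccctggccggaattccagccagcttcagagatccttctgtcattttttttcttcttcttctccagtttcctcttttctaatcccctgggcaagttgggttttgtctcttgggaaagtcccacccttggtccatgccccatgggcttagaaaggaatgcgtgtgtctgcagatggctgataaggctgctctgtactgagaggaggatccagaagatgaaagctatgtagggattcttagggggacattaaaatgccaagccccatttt
Muc1 (chr3:89228806-89229105, plus strand): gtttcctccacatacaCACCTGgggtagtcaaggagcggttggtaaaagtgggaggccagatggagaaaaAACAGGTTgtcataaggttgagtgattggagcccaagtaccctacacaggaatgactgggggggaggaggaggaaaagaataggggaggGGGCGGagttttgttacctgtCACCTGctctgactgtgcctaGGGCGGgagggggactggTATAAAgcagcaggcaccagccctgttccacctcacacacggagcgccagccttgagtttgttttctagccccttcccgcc

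No marked match in these windows overlaps another, and a match is only a stretch of letters, not a bound site. Cldn4 held 2 E-boxes, at -14 and 12 from the start site (positions are those of the first base of the match on the strand of the gene, with no position 0). Epcam held E-boxes at -187 and -19, and Muc1 at -234 and -70, together with a grainyhead-like match at -180 and a TATA box at -31. Cldn3 held 1 E-box, at 32. The windows of Cldn1, Cldn2 and Krt14 held none, and Krt14 matched none of the 6 motifs. Cldn2 had a TATA box at -35, and Cldn1 had GC boxes at -42 and -14.

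A RefSeq window was at hand for 31 of the 42 genes (39 windows, since some genes have several start sites), and 11 genes had none. The E-box was in 56.4% of the members' windows, against 20.2% of all 32851 windows and 19.7% of the protein-coding ones. By gene it was in 19 of 31: in 12 of the 14 genes that were too dim to test and in 7 of the 17 that were tested. The same split was not counted over all genes, so it cannot be called particular to these. A gene with several windows also had more room for a match than a single window. The grainyhead-like motif was in 15.4% of the members' windows against 2.09% of all, in Cgn, Cldn5, Muc1, Prom1 and Rab25. AP-1 matched 15.4% against 7.81%, the GC box 66.7% against 35.7% (46.2% of coding windows), the TATA box 7.69% against 13.6%, and the forkhead motif 0% against 3.65%. Base composition differed too. The median GC content was 60.7% in the members' windows, 52.7% in all and 56.3% in coding windows. Its part in the motif counts was not tested.

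All levels that follow are on a log2 scale on which 0 equals the 75th percentile of an array over its probes other than controls. Levels of different probes depend on the probe and are not set against each other. The arrays had 27502 to 28841 probes well above background, no saturated spot and 75th percentiles between 627 and 675 intensity units. The lowest level well above background lay between -3.85 and -3.53. Between the 2 arrays of a line the 28 tested probes of these genes differed by a median of 0.07 in ID8G cells (largest 1.03) and 0.07 in GO2 cells (largest 0.60). The 7 spike-in controls with clear signal on every array read 0.15 to 0.28 higher in GO2 cells after this scaling.

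Of the 23 tested genes, 2 were called higher (8.7%) and 4 lower (17.4%) in GO2 cells. Among all 13215 tested genes 5.98% were called higher and 3.94% lower. Both members called higher were tested only through GO2 cells. With signal required on all 4 arrays, 0 members were called higher and 3 lower. The median difference of the 23 was -0.29, against -0.000415 for all tested genes. The sign was negative for 15 and positive for 8. When arrays were scaled to the spike-ins, all probes shifted by -0.21 and the signs of Cldn7, Cldn9, Esrp1 and Spint2 turned, which left 19 negative and a median of -0.50. At an adjusted p below 0.05 with no limit on size, 13 genes were lower and 4 higher, where 41.0% of all tested genes passed in either direction. The arrays of the lines did not overlap for 19 of the 23 genes (15 with GO2 below, 4 above), while 78.5% of all tested genes showed no overlap. With 2 arrays against 2, an exact permutation test of a single gene cannot give a two-sided p below 0.333.

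**Figure D1:**
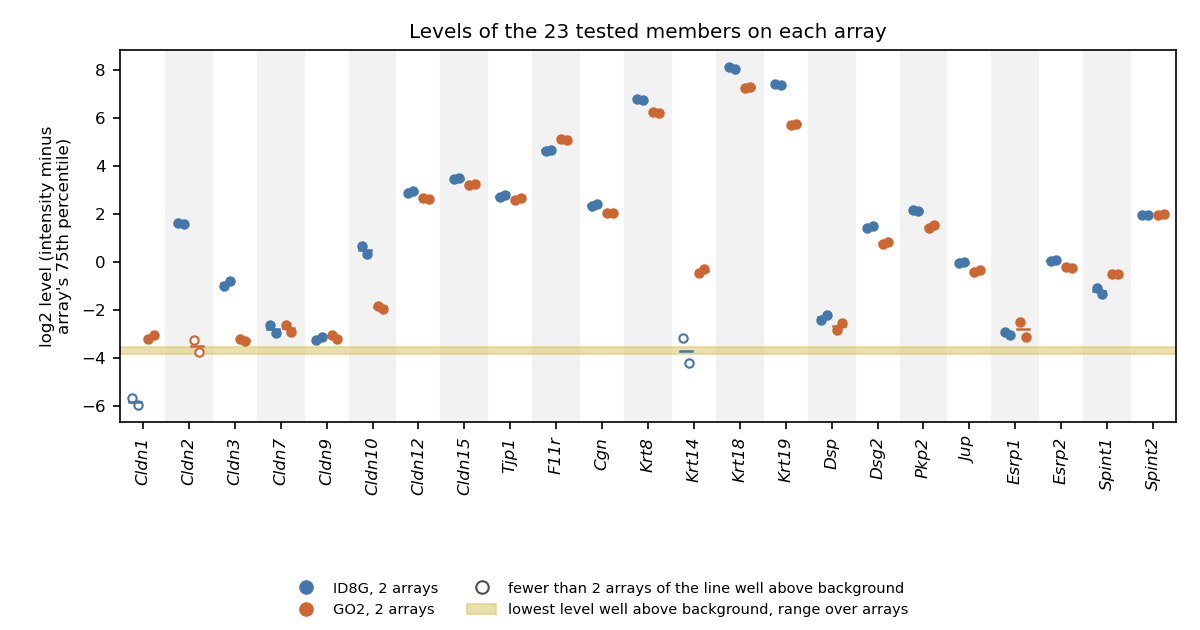
Log2 level (relative to the array's 75th percentile) of the 23 tested genes on each of the 4 arrays, with a bar at the mean of each line; open points mark a line with fewer than 2 arrays well above background, and the band spans the lowest level well above background over the arrays. Cldn2, Cldn3, Cldn10 and Krt19 lie lower in GO2 cells and Cldn1 and Krt14 higher, while the other genes differ by less than 1.

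The claudins held most of the calls: of 14 genes, 8 were tested, 3 fell (37.5%) and 1 rose (12.5%). Over all tested genes 3.94% were called lower and 5.98% higher. Cldn2, which forms a pore for small cations and water, read 1.61 and 1.58 in ID8G cells and -3.24 and -3.74 in GO2 cells. The lines were far apart, and only 1 of the 2 GO2 arrays was well above background. The difference was -5.08 ± 0.18 (SE, n = 2 and 2; adjusted p = 0.000429), 33.9-fold lower. A second Cldn2 probe read -2.40 and -2.57 in ID8G cells and -5.69 and -6.00 in GO2 cells, where it was not above background on either array. It was therefore at least 2.51-fold lower (adjusted p = 0.000512). A bound of this kind sets the mean of the brighter line against the lowest level well above background on each array of the dimmer line, or its own reading where that is higher.

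Cldn3, a sealing claudin, read -0.99 and -0.79 in ID8G cells and -3.23 and -3.29 in GO2 cells. All 4 arrays were well above background and the lines did not overlap. It fell by 2.37 ± 0.09 on the log2 scale (adjusted p = 0.00045), 5.16-fold. Cldn10, whose isoforms make ion-selective pores, read 0.65 and 0.33 in ID8G cells and -1.82 and -1.97 in GO2 cells. It too was measured on every array, and it fell by 2.38 ± 0.13 (adjusted p = 0.00106), 5.22-fold.

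Cldn1, the claudin of the epidermal barrier, went the other way. It read -5.69 and -5.97 in ID8G cells, below background on both arrays, and -3.23 and -3.03 in GO2 cells. The GO2 readings were low but above background on both. The fitted difference was 2.71 ± 0.13 (adjusted p = 0.000766), and GO2 cells were at least 1.46-fold higher. With normexp background correction the difference was 0.96, and with levels raised to the background floor it was 0.55, neither of which reached the limit of 1. Normexp also brought Cldn2 to -3.86 and Cldn3 to -1.5, and the mean over both Cldn2 probes was -4.22, all still called lower.

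The other 4 tested claudins differed by less than 0.3. Cldn12 read 2.87 and 2.95 in ID8G cells and 2.66 and 2.65 in GO2 cells, a difference of -0.26 (95% interval -0.42 to -0.10, adjusted p = 0.0353). Cldn15, a cation pore claudin known from the intestine, read 3.46 and 3.49 against 3.21 and 3.26, a difference of -0.24 (interval -0.39 to -0.10, adjusted p = 0.0312). Both differences exceeded the spread between arrays but not the limit on size. Cldn7 (0.02, interval -0.41 to 0.45) and Cldn9 (0.07, interval -0.17 to 0.31) were close to background, and their arrays overlapped between the lines. Neither interval reached a 2-fold difference.

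Of the 6 other tight junction members 3 were tested and 0 were called, with 2 at an unadjusted p below 0.05 (limma). Such a p was reached by 13662 of all 28368 tested probes. F11r, the adhesion molecule JAM-A, read 4.64 and 4.67 in ID8G cells and 5.14 and 5.09 in GO2 cells, a difference of 0.46 ± 0.05 (adjusted p = 0.00639) that stayed below 2-fold. The GO2 arrays lay above both ID8G arrays. Tjp1, the scaffold ZO-1, read 2.72 and 2.79 in ID8G cells and 2.57 and 2.69 in GO2 cells (-0.13, adjusted p = 0.225), and its second probe gave -0.34 (adjusted p = 0.0152). Cgn, cingulin, which links the junction to the cytoskeleton, read 2.33 and 2.43 against 2.04 and 2.04 (-0.34, adjusted p = 0.0196). Its second, dimmer probe gave 0.04 (adjusted p = 0.696), so the probes of Cgn disagreed. Ocln, Tjp3 and Crb3 were not tested.

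Of the 6 keratins 4 were tested, and among the 3 tested keratins of simple epithelia Krt19 fell. Krt19, a type I keratin, read 7.40 and 7.37 in ID8G cells and 5.72 and 5.75 in GO2 cells. The GO2 arrays lay well below the ID8G arrays, by 3.14-fold (-1.65 ± 0.05, adjusted p = 0.00034). Krt18 read 8.12 and 8.07 against 7.27 and 7.29, a difference of -0.81 ± 0.05 (adjusted p = 0.00162). Its partner Krt8 read 6.81 and 6.76 against 6.25 and 6.21, a difference of -0.55 ± 0.05 (adjusted p = 0.00438). Both were lower on each GO2 array than on each ID8G array without reaching 2-fold. When arrays were scaled to the spike-ins, Krt18 differed by -1.02 and was called lower.

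Krt14, the type I keratin of basal epithelial cells, rose. It read -3.19 and -4.22 in ID8G cells, where 1 of the 2 arrays was well above background, and -0.46 and -0.31 in GO2 cells. The ID8G arrays differed by 1.03, the widest replicate gap among the 28 tested probes of these genes, and the lines still did not overlap. Krt14 was therefore tested only through GO2 cells. The fitted difference was 3.32 ± 0.37 (adjusted p = 0.00599), with 1 ID8G reading under background. It was 3.12 with levels raised to the background floor and 2.09 with normexp, and it was called higher in each case. Krt5, the type II partner of Krt14 in basal cells, read -4.48 and -4.31 in ID8G cells and -4.52 and -4.40 in GO2 cells, above background on no array. Krt7, another simple keratin, read -5.84 and -5.57 against -6.07 and -4.73, also above background on none. In the order of RefSeq genes, Krt19 and Krt14 are separated by 1 gene and moved in opposite directions (-1.65 and 3.32), whereas the adjacent Krt8 and Krt18 differed by -0.55 and -0.81.

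Of the 6 desmosomal members 4 were tested and 0 were called. All 4 read lower in GO2 cells under each scaling tried, and all 4 had an unadjusted p below 0.05 (limma). Of all 28368 tested probes, 13662 had such a p, so it does not single out these genes. Dsg2, the desmoglein of simple epithelia, read 1.41 and 1.49 in ID8G cells and 0.77 and 0.83 in GO2 cells (-0.65 ± 0.06, adjusted p = 0.00389). Pkp2, a plakophilin, read 2.16 and 2.12 against 1.40 and 1.53 (-0.68 ± 0.07, adjusted p = 0.00515). Jup, plakoglobin, which also sits in adherens junctions, read -0.05 and -0.01 against -0.42 and -0.35 (-0.36 ± 0.06, adjusted p = 0.0145), and its second probe gave -0.84 (adjusted p = 0.00231). For these 3 genes the lines were apart by more than the spread between arrays and by less than 2-fold. Dsp, desmoplakin, the plaque protein that binds keratin, read -2.40 and -2.20 against -2.82 and -2.54 (-0.37 ± 0.13, adjusted p = 0.091) and did not pass. Dsc2 and Pkp3 were not above background.

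**Figure D2:**
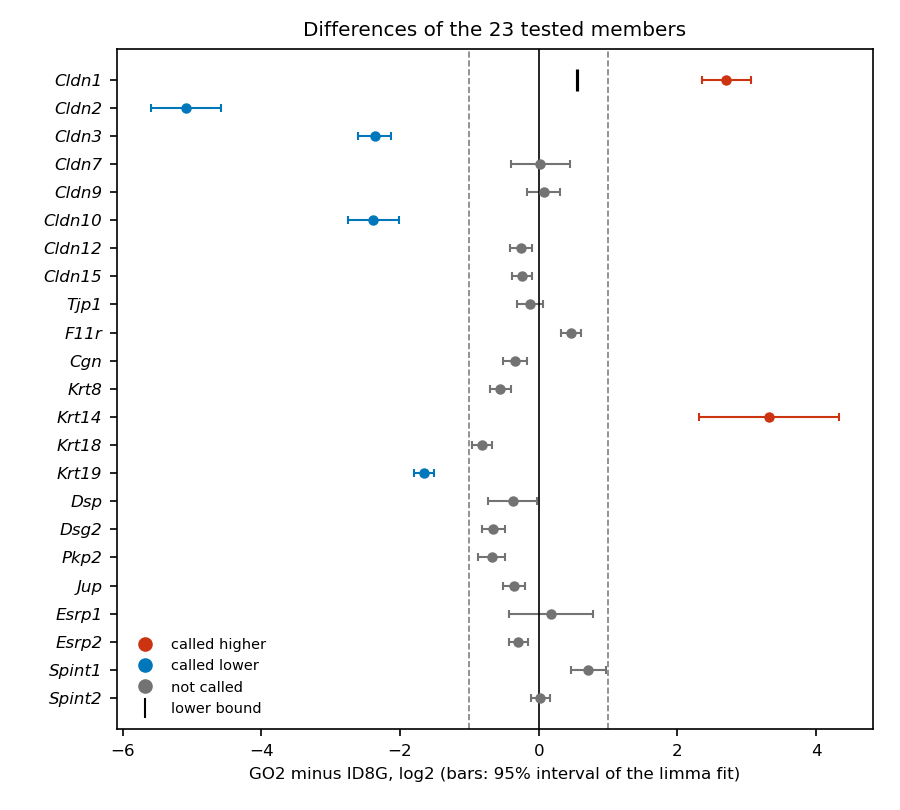
Difference between GO2 and ID8G cells (log2, GO2 minus ID8G) of the 23 tested genes, with the 95% interval of the limma fit from 2 arrays per line; dashed lines mark the limit of 1 in either direction and the black tick the lower bound for Cldn1 (0.55). Cldn2, Cldn3, Cldn10 and Krt19 lie below -1, Cldn1 and Krt14 above 1, and the 4 desmosomal genes between -0.68 and -0.36.

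The splicing regulators of epithelial cells did not pass. Esrp1, which directs epithelial exon choice, read -2.92 and -3.06 in ID8G cells and -2.51 and -3.11 in GO2 cells, with overlapping arrays and a difference of 0.18 (95% interval -0.43 to 0.78). Esrp2 read 0.05 and 0.08 against -0.22 and -0.24, a difference of -0.29 ± 0.05 (adjusted p = 0.0176). Of the inhibitors of the membrane protease matriptase, Spint1 read -1.11 and -1.33 against -0.51 and -0.50, a difference of 0.72 ± 0.09 (adjusted p = 0.00915). Its second probe was not above background in ID8G cells and was at least 1.31-fold higher in GO2 cells. Spint2 read 1.95 and 1.98 against 1.97 and 2.0 (0.02, interval -0.12 to 0.17), and the lines overlapped. St14, matriptase itself, was not above background on any array with either of its 2 probes.

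Of the 42 genes, 19 could not be tested, and 18 of these had no array on which the brightest probe was well above background. They comprised 6 claudins (Cldn4, Cldn5, Cldn6, Cldn8, Cldn11 and Cldn23), Ocln, Tjp3, Crb3, Krt5, Krt7, Dsc2, Pkp3, Epcam, Muc1, Prom1, St14, Rab25 and Ap1m2. Epcam, a surface marker of carcinomas, read -5.66 and -6.02 in ID8G cells and -5.89 and -5.87 in GO2 cells. Ocln, occludin, read -5.81 and -6.09 against -5.99 and -6.07. These readings lay below the lowest level well above background on every array, so a difference between the lines was not detectable for them.

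A few of the dim genes still read differently in the 2 lines. Muc1, a membrane mucin of apical surfaces, read -4.27 and -3.79 in ID8G cells and -5.93 and -6.04 in GO2 cells. Crb3, an apical polarity protein, read -4.04 and -4.25 against -5.99 and -6.07. Neither was well above background on any array. Without the filter on dim probes they were called lower, with differences of -1.96 (adjusted p = 0.0292) and -1.88 (adjusted p = 0.0118), which are no folds because neither side was measured. Cldn4, whose gene lies next to Cldn3, read -4.49 and -4.16 against -4.97 and -5.11, above background on no array. Tjp3 read -4.41 and -4.54 against -5.82 and -4.96, also above background on none. Cldn11 read higher in GO2 cells, with -4.72 and -5.36 against -5.67 and -5.97 in ID8G cells, again above background on none. Rab25, a small GTPase of apical recycling, read -5.85 and -1.82 in ID8G cells and -2.45 and -4.45 in GO2 cells, with 1 array of each line above background, so its replicates did not agree and no direction is given.

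**Figure D3:**
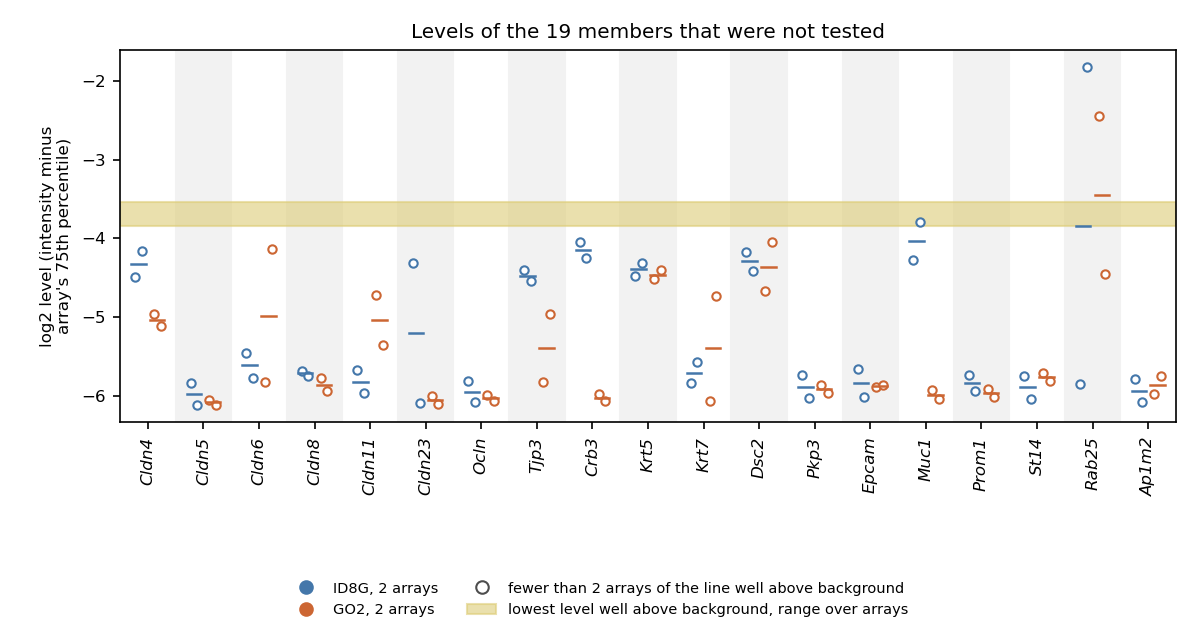
Log2 level (relative to the array's 75th percentile) of the 19 genes that were not tested on each of the 4 arrays, with a bar at the mean of each line and a band over the lowest level well above background on the arrays. All but the 2 higher Rab25 points lie in or under the band, Crb3 and Muc1 read lower in GO2 cells, and the replicates of Rab25 and Cldn23 are far apart.

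Other genes of the same structures were counted from lists chosen by name. Beside each count of calls on these and the later lists stands the share over all tested genes, 5.98% higher and 3.94% lower. Of 44 further tight junction genes 29 were tested, 3 rose and 1 fell, and the median difference was 0.00. The junctional adhesion molecules Jam3, at least 2.43-fold higher, and Jam2, at least 5.10-fold higher, were below background in ID8G cells and above it in GO2 cells. Amot, a scaffold of polarity complexes, rose by 1.82 ± 0.07, and Magi1, a scaffold with PDZ domains, differed by -1.21 ± 0.06. Pard3, a polarity scaffold chosen after its values were seen, gave -0.77 with its brightest probe, which was not called, although 2 of its 5 tested probes were called lower.

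Each keratin and desmosomal gene called on these lists was lower in GO2 cells. Of 47 further keratin genes 17 were tested, and 6 were called lower and 0 higher, although 3 of the 6 were measured in ID8G cells alone. Krt80, not among the 6, gave -0.08 with its brightest probe, while its second probe was called lower (-1.04). Krt23 read 1.15 and 1.15 in ID8G cells and -2.57 and -2.58 in GO2 cells, a difference of -3.73 ± 0.05 (adjusted p = 0.000182). Krt42 (-1.78) and Krt79 (-1.59) fell as well, and Krt24, Krt33a and Krt32 were at least 1.68, 1.69 and 1.42-fold lower, with GO2 cells below background, so that their bounds do not reach 2-fold. Of 12 further genes of the desmosome and the cornified envelope 6 were tested and 2 fell: Pkp1, a plakophilin (-2.89 ± 0.15), and Perp, a desmosomal membrane protein (-2.07 ± 0.05). Of the other intermediate filaments Prph (-2.03) and Nes (-1.80), both known from neural cells, fell, and vimentin, the filament of mesenchymal cells, differed by 0.75 ± 0.05 and was not called.

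Genes of the other junctions gave single calls. Among 10 tested genes of the adherens junction plaque and the nectins, Nectin1 rose (2.18 ± 0.10). Of 9 tested connexins Gjb5 rose (2.87 ± 0.08), and Gja1, the most widespread connexin, differed by 0.83 without a call. Of 7 tested hemidesmosome genes Itga6, a laminin-binding integrin chain, fell (-2.0 ± 0.06) with all 3 of its probes. Of 5 tested epithelial transcription factors Foxa1 fell (-2.28 ± 0.10), while Grhl2, which drives claudin and E-cadherin genes, was not tested. Of 2 tested membrane proteases and partners Met, the receptor of hepatocyte growth factor, rose (1.28 ± 0.06). In the wider list of epithelial identity genes 17 were tested, 2 rose and 5 fell. Cd24a, a surface glycoprotein, read -3.04 and -2.92 in ID8G cells and 1.99 and 1.94 in GO2 cells, a rise of 4.94 ± 0.07. Myo5b, a motor of apical recycling, rose by 2.34 ± 0.07, and Lad1 (-2.13), Macc1 (-1.47), Tspan1 (-1.28) and Mal2 (-1.12) fell, as did Ceacam1, at least 2.04-fold. Cdh1, E-cadherin, read -0.48 and -0.33 against -0.83 and -0.65 (-0.34 ± 0.10, adjusted p = 0.06) and did not pass.

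**Figure D4:**
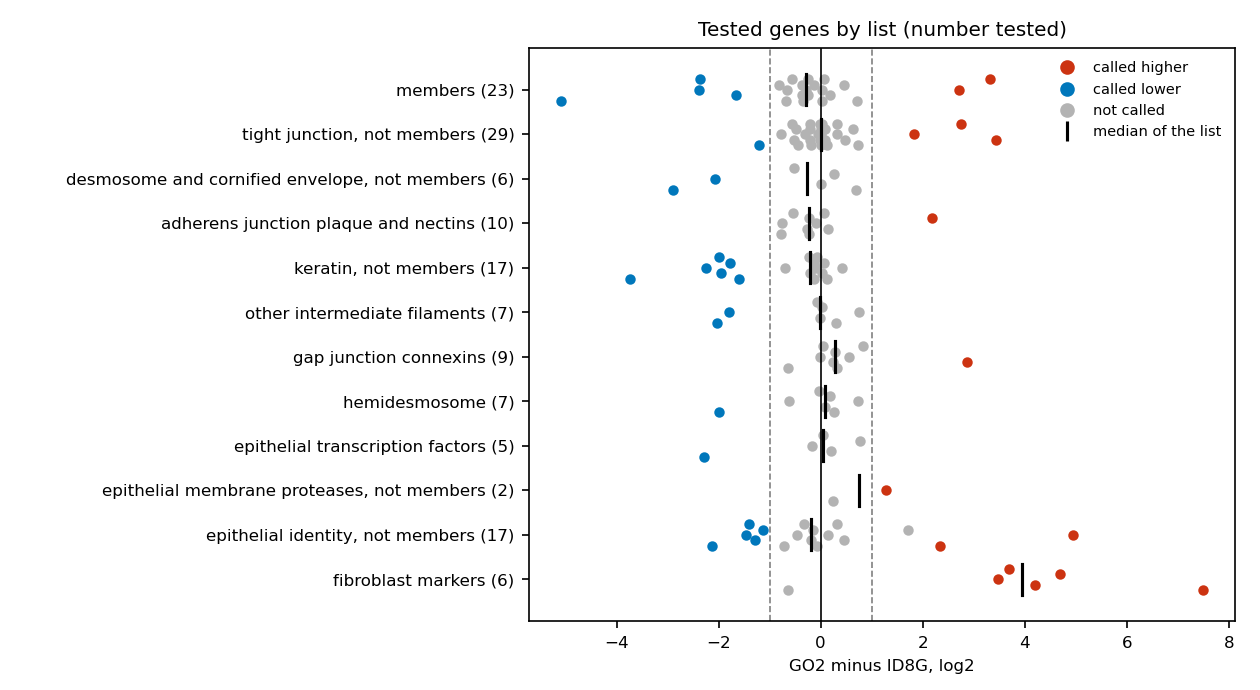
Difference between GO2 and ID8G cells (log2, GO2 minus ID8G) of each tested gene, by list, with the number tested in parentheses, the median of each list as a black bar and dashed lines at the limit of 1 in either direction. The fitted differences of the 6 called keratins outside the 42 genes lie below -1, with GO2 cells under background for 3 of them. Those of the called tight junction genes lie mostly above 1, and 5 of the 6 fibroblast marker genes lie above 3. ID8G cells were under background for Jam2, Jam3 and Pdgfrb, so their plotted differences are not measured folds.

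The samples were checked for markers of the cells they should and should not hold. Of the 6 epithelial markers Krt8, Krt18, Krt19 and Cdh1 were well above background on all 4 arrays in both lines, and Krt7 and Epcam on none. The mesothelial and ovarian surface markers Wt1, Msln, Upk3b and Lrrn4 were above background throughout. Of the 10 tested genes on that list 2 rose, Aldh1a2 by 2.19 and Upk3b by 1.08, while Msln differed by -0.82 and Wt1 by -0.10 without a call. The probes of Nkain4 disagreed: its brightest gave 0.19 and was not called. Its second, below background in ID8G cells, was called and was at least 5.54-fold higher in GO2 cells. Of 16 leukocyte markers 7 were tested, each of them well above background on all 4 arrays, and 0 were called. Of the 4 defining leukocyte markers Ptprc (CD45), Tyrobp and Laptm5 were above background on no array and Cd68 on all 4. Of 12 endothelial markers 5 were tested and 0 were called, with Cdh5, Kdr and Tie1 above background on none and Pecam1 on all 4. The summed signal of the leukocyte list was 4.78 and 4.91 in ID8G cells and 4.75 and 4.74 in GO2 cells, and that of the endothelial list 2.05 and 2.13 against 1.83 and 1.94. Most of the leukocyte sum was the brightest probe of Itgam, at 4.18 and 4.39 in ID8G cells and 4.13 and 4.17 in GO2 cells. A second Itgam probe read -3.63 and -3.93 against -3.56 and -3.32 and was not tested, so the probes of Itgam disagreed in level. Without the limit on size, 1 leukocyte marker passed the limma fit (Cd14, -0.69, adjusted p = 0.0021). So did 2 endothelial markers (Esam, -0.68, adjusted p = 0.00869, and Egfl7, 0.97, adjusted p = 0.00123). At that threshold 41.0% of all tested genes passed in either direction, so passing does not single out these markers.

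Fibroblast markers moved with the change of cell line. Of 12 such genes 6 were tested and 5 rose: Col1a2 by 7.49, Col1a1 by 4.69, Col3a1 by 4.2, Pdgfra by 3.70 and Pdgfrb by at least 2.42-fold. The summed signal of the 12 genes, as a log2 level, was 6.16 and 6.10 in ID8G cells and 7.23 and 7.24 in GO2 cells. Dcn, on the same list, read 6.07 and 6.01 in ID8G cells and 5.41 and 5.42 in GO2 cells (-0.63). It was thus bright in the parent line already. Lum was above background on no array. Of 9 adipocyte markers 3 were tested and 2 fell, Fabp4 (at least 6.28-fold) and Lpl (-1.53), and Adipoq and Plin1 were above background on no array. The summed signal of the list was 4.63 and 4.61 in ID8G cells against 3.19 and 3.10 in GO2 cells. It was mostly Lpl, which alone read 4.57 and 4.55 against 3.07 and 2.99. In bulk RNA, fewer cells that express a gene and less RNA per cell cannot be told apart, and the part of these markers in the lower claudins and keratins was not tested.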

How the data were processed

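Each line was hybridized to 2 of the 4 Agilent arrays. The authors deposited scanner files with linear spot intensities. Feature Extraction 11.5.1.1 had subtracted the background, no scaling between arrays had been applied, and outlier, saturated and well-above-background spots are marked. The authors also deposited log2 values, scaled by 75th percentile and then set relative to the median of the probe, used in 1 alternative only.

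From the intensities, log2 values minus the 75th percentile of the array were computed over 56605 probes, with outlier spots (132 to 195 per array) left out and spots of a probe averaged. A probe was tested when both arrays of either line read well above background. The test was limma (version 3.58.1, R 4.3.3) on cell line alone, with Benjamini-Hochberg adjustment over 28368 probes. A gene took its tested probe with the highest mean level. For 32994 probes (58.3%) the RefSeq accession gave a gene symbol through a table for GRCm38.p6. The arrays were designed on mm9, so probe positions are not given. Figures used matplotlib 3.10.9 in python 3.11.15.

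The 42 genes, the lists and the alternatives were chosen with earlier results of these data known. Values on every array are given for called members, all keratins among them and up to 4 further tested members of each role, and of each other list up to 4 called genes in each direction and up to 2 textbook genes. Krt42, Krt79, Krt80, Mal2, Pdgfrb, Pard3, Nkain4, Itgam, Cd14, Esam and Egfl7 were added after their values were seen. The untested members with printed readings, apart from the keratins, also fall outside this rule. The 20 alternatives included normexp (on the median pixel of each spot), other scalings, filters and thresholds, the methods' t-test, a replicate block and each array left out. The procedure was tested on simulated data.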

Additional observations from a re-analysis of the deposited data

How the results depend on the processing

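The 2 genes called higher (Cldn1, Krt14) and the 4 called lower (Cldn2, Cldn3, Cldn10, Krt19) gave the same counts under quantile normalization, median centring, an intensity trend, limma treat, an adjusted p below 0.01, outlier spots kept, the deposited values and the mean over probes. Leaving out each array in turn gave 2 higher and 4 lower in every case, with the lone array of a line assumed to vary like the other line. The replicate block also gave 2 and 4. Replicate numbers were not taken as pairs, since same-numbered arrays deviated together with r = 0.03 across probes. Normexp and the background floor left 1 gene higher, because Cldn1 missed the limit on size. Requiring signal on all 4 arrays left 0 higher and 3 lower, since Cldn1, Krt14 and Cldn2 were not tested under it. Scaling to the spike-ins gave 5 lower, no filter 6. With no limit on size there were 4 higher and 13 lower. The methods' t-test called 0 higher and 0 lower after adjustment (smallest adjusted p 0.0965), where 1 and 4 passed an unadjusted p below 0.05 with 2-fold. At any size, 6976 of all 28368 tested probes passed that unadjusted p with this t-test. Of 457 comparisons of single genes with an alternative, 437 stayed on the same side of the threshold (called or not called), 8 lost a call, 12 gained one and 0 calls turned direction. Over all probes the calls numbered 1277 higher and 947 lower, against 818 and 517 with normexp, 666 and 606 with signal on all arrays, 748 and 440 with treat, 4835 and 5348 with no limit on size, 1102 and 1434 with the spike-ins, and 0 and 3 with the t-test. Slide could not be used as a block because there was 1 slide. Only 4 arrays and dim signal limit the precision, most of all for the 19 genes that were not tested.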
